A study of Mus musculus with 26 samples.

Results

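Matrix proteases cut the proteins of the extracellular matrix and of the cell surface, and tissue inhibitors of metalloproteinases (TIMPs) hold many of them in check. A fixed set of 47 such genes was followed in the aorta of male mice: 17 matrix metalloproteinases (MMPs), 4 TIMPs and the membrane-anchored MMP inhibitor Reck, 4 proteinases that trim procollagens, 9 other ADAMTS enzymes, 8 ADAM sheddases and 4 cathepsins. The genes were chosen by symbol and family, with earlier results of these data known. All 47 were found among the 54532 identifiers of the count files, by the Ensembl identifier that the annotation pairs with each symbol. Of the 26 RNA-seq libraries, 16 came from untreated mice. They form 4 groups of 4: ascending and descending aorta of wild-type mice, and ascending and descending aorta of littermates heterozygous for the C1041G mutation of fibrillin-1 (Fbn1 C1041G/+, here called mutant). The remaining 10 came from ascending aorta of C1041G/+ mice treated with antisense oligonucleotides (ASO): 5 had AGT-ASO, directed at angiotensinogen, and 5 a control ASO. Both ASO groups therefore carry the mutation. No source used here states the ages of the mice or the dose and length of treatment.

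Most MMPs are made as inactive proenzymes and are secreted, while the membrane-type MMPs stay on the cell surface and can activate other MMPs there. TIMPs bind active MMPs, and Timp3 also inhibits several ADAM and ADAMTS enzymes. In the aortic wall, smooth muscle cells, fibroblasts and macrophages make these enzymes, and breakdown of elastic fibres by MMPs and cathepsins is a known feature of aortic aneurysm, including that of Marfan syndrome, which Fbn1 C1041G/+ mice model.

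The libraries held 17171652 to 28554356 counts each. Levels are given as counts per 1000000 counts of the scaled library total (CPM), with the standard deviation (SD) between libraries, and as CPM per kilobase (kb) of exon where genes are compared with each other. All 8 smooth muscle markers were detected in every group, with summed levels of 16143 to 29469 CPM per library. Markers of neighbouring tissue moved with region: 8 mesothelial markers summed to 317 to 434 CPM in wild-type and 352 to 588 CPM in mutant ascending aorta, against 21.1 to 32.9 and 22.2 to 36.4 CPM in descending aorta. The 10 heart muscle markers summed to 279 to 1142 and 304 to 662 CPM in ascending aorta, against 72.7 to 145 and 126 to 245 CPM in descending aorta. Ryr2 alone averaged 102 and 130 CPM in ascending and 92.3 and 155 CPM in descending aorta. The median log2 fold change of the 10, ascending over descending, was 6.01 in wild-type (0.14 to 9.81) and 4.73 in mutant mice (-0.25 to 6.97). One library stood apart: mutant ascending library 2 had 143 CPM of 10 lymphocyte and thymus markers, against 5.95 to 20.4 CPM in the other 3 of its group. In these bulk samples, fewer cells of a type and less RNA per cell cannot be told apart. The labels do not say that the libraries of a group are from separate mice, so p-values measure the spread between these libraries.

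Inhibitors and lysosomal enzymes led the set when levels were compared per kb. The length used is that of all annotated exons of a gene merged, such as 3896 bases for Timp2 and 6489 for Ctsl. The order of genes and their shares depend on these lengths. Timp2, which both inhibits MMPs and helps Mmp14 to activate Mmp2, had the highest level in all 6 groups, at 325 to 340 CPM per kb. Timp2, Timp3, Ctsb and Ctsl, the last 2 being lysosomal cathepsins, together made up 51.0 to 56.1% of the summed level per kb of all members. Of the MMPs, Mmp2 (gelatinase A, which cuts denatured collagen) had group means of 48.2 to 82.6 CPM per kb, Mmp23 of 45.3 to 63.4 and Mmp3 of 26.7 to 88.3. The order of these 3 was not the same in every group: Mmp2 led in wild-type ascending aorta, and Mmp3 in mutant descending aorta. Mmp14, the main membrane-type activator of Mmp2, stood at 13.9 to 21.4 CPM per kb, and Mmp9, the second gelatinase, at 0.205 to 1.51. At the low end, Mmp10 had 0 counts in all 26 libraries, where 3 counts over all libraries would be 0.0057 CPM.

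**Figure D1:**
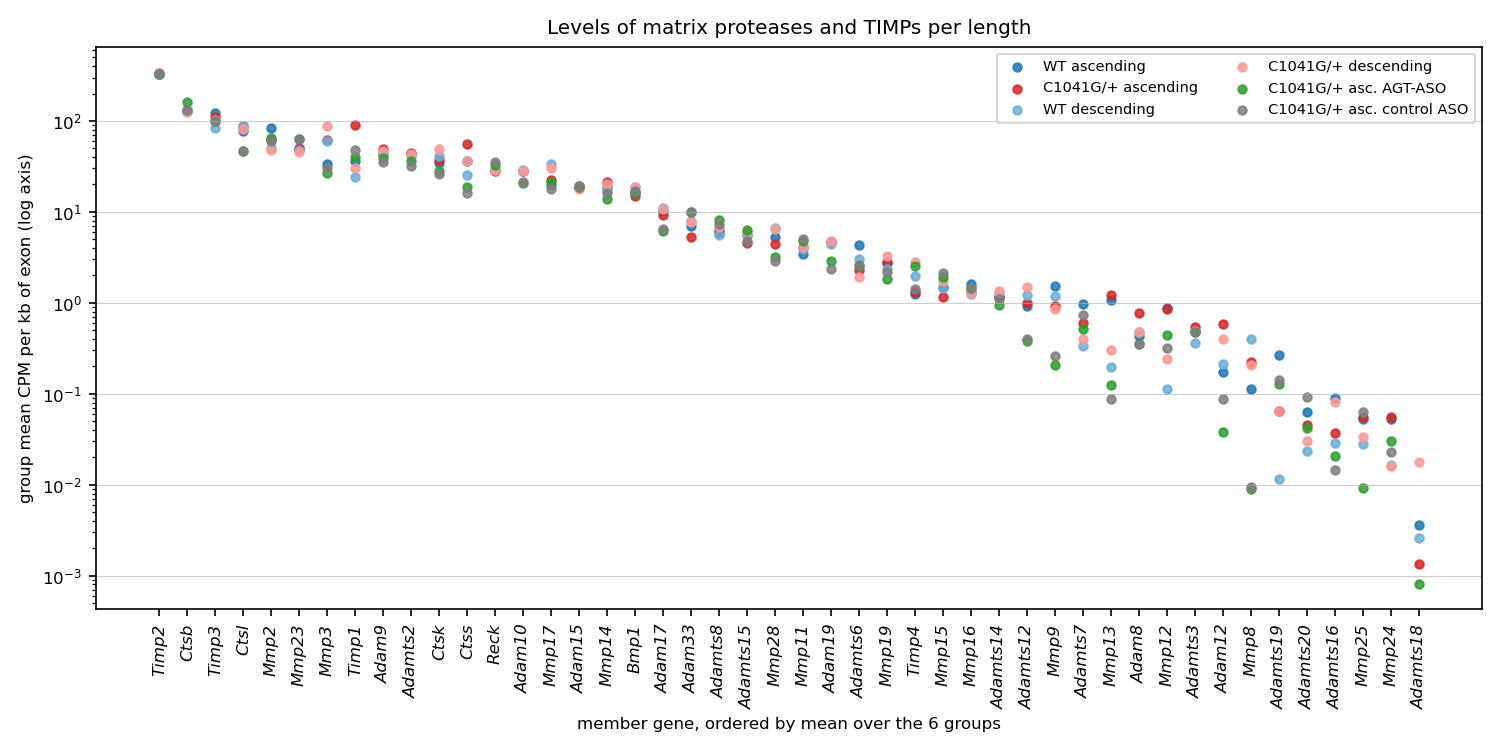
Group means of 46 members in CPM per kb of exon on a log axis, in the order of their mean over the 6 groups; Mmp10 and the control ASO value of Adamts18 are at 0 and not drawn. Timp2 is highest in all 6 groups, at 325 to 340 CPM per kb.

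Some members varied little between libraries of a group. The mean coefficient of variation within the 4 untreated groups was 4.14% for the sheddase gene Adam9, 4.27% for Timp2, 5.16% for Adam10, which releases Notch, and 5.68% for Ctsb. The same measure came to 24.9% for Mmp2, 30.0% for Timp1 and 65.8 to 99.6% for Adamts20, Adam12, Adamts19, Adamts16 and Mmp8. A further 4 members had too few counts for a test in the untreated libraries: Mmp10, Mmp24 (6 to 22 counts over a group), Mmp25 (11 to 23) and Adamts18 (1 to 13). In the ASO libraries Mmp8, Mmp13, Adamts16 and Adamts20 were left out as well, so 43 members were tested in untreated and 39 in ASO libraries.

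The region of the aorta was the comparison in which members passed. Between ascending and descending aorta of wild-type mice, 7 of 43 members passed (16.3%, against 11.1% of all 15645 genes tested), 5 higher and 2 lower in ascending aorta. In mutant mice 9 of 43 passed (20.9%, against 9.92% of all genes), 3 higher and 6 lower. Over all genes, 7.82% were higher and 3.31% lower in wild-type ascending aorta, and 6.41% and 3.51% in mutant ascending aorta. Mmp12 and Mmp13 were higher and Mmp17 and Timp4 lower in ascending aorta of both genotypes. The tested members had a median log2 fold change of 0.01 in wild-type mice, while mutants had 0.03, against -0.01 for all genes in each. At an unadjusted p under 0.05 there were 12 members in wild-type and 14 in mutant mice (27.9% and 32.6%, against 21.1% and 20.1% of all genes). The regions had no overlapping libraries for 6 members in wild-type mice and 13 in mutant mice, where 14.5% and 14.4% of all genes had none.

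**Figure D2:**
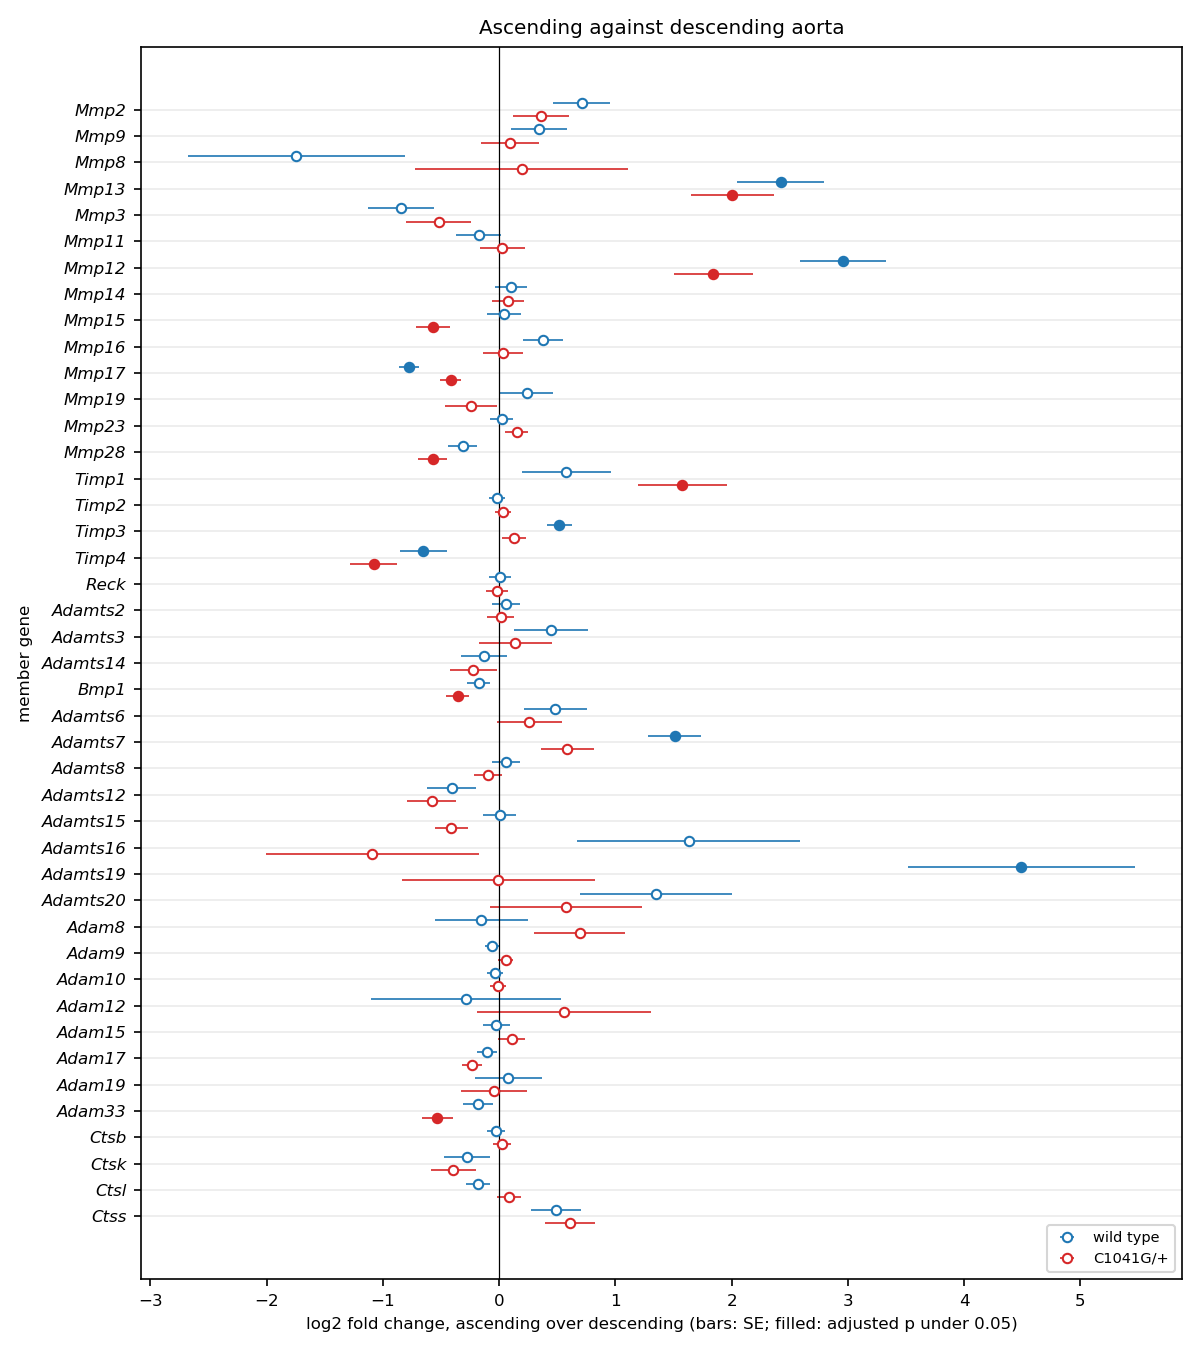
Log2 fold change of each tested member, ascending over descending aorta, in wild-type (blue) and C1041G/+ mice (red), with standard errors as bars and filled points for an adjusted p under 0.05. Mmp12 and Mmp13 lie to the right and Mmp17 and Timp4 to the left with filled points in both genotypes.

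Mmp13 and Mmp12 are neighbours in a cluster of MMP genes on chromosome 9, and both were several times higher in ascending aorta. Mmp13, a collagenase that opens the triple helix of fibrillar collagens, lies at chr9:7272514-7283331 (GRCm38, plus strand). Mmp12, the metalloelastase best known from macrophages, lies at chr9:7344381-7369499. Between Mmp12 and Mmp10 lies Mmp3, stromelysin, which cuts proteoglycans and activates other MMPs, at chr9:7445822-7455975. Because these neighbours differed in how they moved, the bases before their starts are shown, from the RefSeq promoter table of build GRCm38.p6. All are on the plus strand, 5′ to 3′. Capitals mark the letters TGAGTCA, which as a site are bound by AP-1 factors and which read TGACTCA on the other strand. They also mark the letters TATAAA of a TATA box, which on the other strand become TTTATA, and no marked stretch overlaps another.
Mmp13, chr9:7272264-7272513: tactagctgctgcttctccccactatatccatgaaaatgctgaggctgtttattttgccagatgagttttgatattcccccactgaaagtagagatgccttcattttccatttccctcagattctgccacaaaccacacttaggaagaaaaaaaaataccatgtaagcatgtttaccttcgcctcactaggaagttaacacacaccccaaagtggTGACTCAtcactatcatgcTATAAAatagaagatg
Mmp12, gene start, chr9:7344147-7344380: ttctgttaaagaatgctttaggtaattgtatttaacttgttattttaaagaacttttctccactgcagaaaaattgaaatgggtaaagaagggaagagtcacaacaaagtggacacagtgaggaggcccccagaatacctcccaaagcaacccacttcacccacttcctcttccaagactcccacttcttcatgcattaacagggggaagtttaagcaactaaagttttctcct
Mmp12, inner start, chr9:7347124-7347373: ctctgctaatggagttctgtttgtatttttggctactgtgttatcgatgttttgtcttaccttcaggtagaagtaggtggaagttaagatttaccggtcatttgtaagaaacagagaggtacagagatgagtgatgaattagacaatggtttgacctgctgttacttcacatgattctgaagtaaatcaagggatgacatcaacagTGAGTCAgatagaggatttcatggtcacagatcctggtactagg
Mmp3, chr9:7445572-7445821: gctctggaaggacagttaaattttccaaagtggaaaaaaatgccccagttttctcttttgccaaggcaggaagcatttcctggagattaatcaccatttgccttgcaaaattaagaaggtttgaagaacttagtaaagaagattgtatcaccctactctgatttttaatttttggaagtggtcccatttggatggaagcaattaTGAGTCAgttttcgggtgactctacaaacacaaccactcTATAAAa
Mmp10, chr9:7502092-7502341: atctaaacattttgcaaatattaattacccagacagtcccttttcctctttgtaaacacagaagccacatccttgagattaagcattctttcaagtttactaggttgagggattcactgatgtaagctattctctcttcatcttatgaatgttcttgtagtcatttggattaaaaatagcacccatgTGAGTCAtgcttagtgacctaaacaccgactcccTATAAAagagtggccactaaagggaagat
The windows are the 250 bases before the start in the table, and that of the Mmp12 gene start ends 16 bases earlier, where the annotated exon begins. In Mmp13 the AP-1 letters begin 35 bases and the TATA letters 16 bases before the start, in Mmp3 46 and 7 bases and in Mmp10 63 and 29 bases. The first Mmp12 window holds neither motif, and the inner one has the AP-1 letters 44 bases before its start. The AP-1 letters occur in 4.46% of 32851 promoter windows of the table and in those of 5 of the 31 members it holds: Mmp3, Mmp10, Mmp12, Mmp13 and Adam19. The TATA letters occur in 12.4% of these 32851 windows and in 4 of the 35 member windows, those of Mmp3, Mmp10, Mmp13 and Ctss. A match of letters is no evidence of binding, and Mmp10, with both motifs, had no count in any library.

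Mmp13 stood at 2.45, 3.705, 3.21 and 2.20 CPM in wild-type ascending libraries 1, 3, 5 and 7, and at 0.544, 0.965, 0.349 and 0.263 CPM in the descending libraries of the same numbers. In mutant libraries 2, 4, 6 and 8 it stood at 3.37, 2.45, 4.85 and 2.40 CPM in ascending and 0.899, 1.13, 0.533 and 0.682 CPM in descending aorta. Every untreated ascending library was above every descending library. The log2 fold change was 2.42 ± 0.37 (standard error, SE) in wild-type and 2.01 ± 0.36 in mutant mice (edgeR quasi-likelihood test, adjusted p = 0.00017 and 0.00082). These levels rest on few reads, with 239 and 261 counts over the ascending and 40 and 60 over the descending groups.

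Mmp12 stood at 5.22, 5.998, 7.23 and 7.03 CPM in wild-type ascending and 0.761, 0.660, 1.40 and 0.474 CPM in wild-type descending libraries. Mutant ascending libraries had 6.53, 4.95, 8.07 and 5.40 CPM, and mutant descending libraries 1.46, 2.26, 2.67 and 0.584 CPM. Here too no untreated ascending library overlapped a descending one. The log2 fold change was 2.96 ± 0.37 SE in wild-type and 1.84 ± 0.34 in mutant mice (edgeR, adjusted p = 1.9e-05 and 0.0012), and neither Mmp12 nor Mmp13 lost its call in any alternative. None of 9 macrophage markers passed by region in either genotype, with sums of 734 to 847 and 923 to 1259 CPM in ascending against 460 to 1052 and 951 to 1150 CPM in descending aorta. The mesothelial and heart muscle sums given above moved with region as Mmp12 and Mmp13 did. The part of macrophage, mesothelial or heart muscle cells in the result was not tested.

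Mmp3 had the opposite sign. Its levels were 58.3, 63.9, 56.9 and 61.7 CPM in wild-type ascending and 133, 118, 39.1 and 142 CPM in wild-type descending libraries, so that only descending library 5 lay below the ascending ones. In mutant mice it stood at 134, 126, 100.2 and 83.4 CPM in ascending and 172, 171, 144 and 150 CPM in descending aorta, with no overlap. It did not pass in either genotype (log2 fold change -0.84 ± 0.28 SE, adjusted p = 0.076, and -0.52 ± 0.28, adjusted p = 0.34, edgeR). Without wild-type descending library 5 it passed (log2 fold change -1.11, adjusted p = 1.3e-05). That library also had the lowest macrophage and fibroblast marker sums of its group (460 and 1501 CPM, against 859 to 1052 and 1878 to 2826 CPM), and their part in the result was not tested. The collagenase gene Mmp8, made mainly by neutrophils, had 24 to 73 counts over a group and did not pass (-1.74 ± 0.93 in wild-type mice, adjusted p = 0.32). With the replicate number as a block, which compares the regions within pairs of the same number, it passed at -1.94 (adjusted p = 0.026). The 5 neutrophil markers tested all had negative log2 fold changes in wild-type mice, from -1.34 to -1.90, and none passed; their part was not tested. Mmp1a, Mmp1b, Mmp7 and Mmp20 of the cluster had 0 counts in all libraries, as Mmp10 did.

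**Figure D3:**
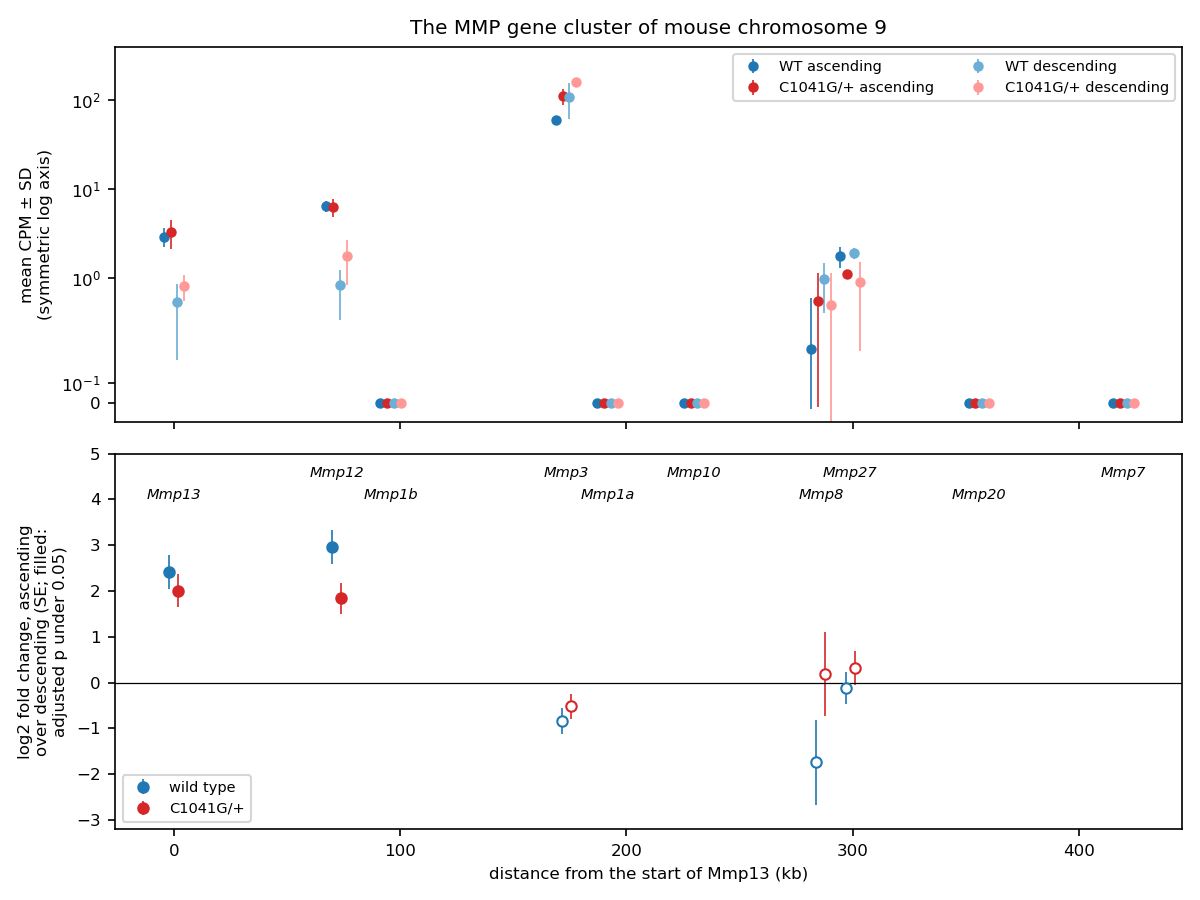
Upper panel: mean CPM ± SD of the 10 genes of the chromosome 9 cluster in the 4 untreated groups (symmetric log axis), by distance from the start of Mmp13 in kb. Lower panel: log2 fold change, ascending over descending, with standard errors; filled points passed at an adjusted p under 0.05, and these are Mmp13 and Mmp12.

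The gelatinases did not pass by region. Mmp2 stood at 210.2, 193, 386 and 326 CPM in wild-type ascending and 189, 131, 132 and 228 CPM in wild-type descending libraries. Libraries 5 and 7 were the high ones in ascending aorta, and the groups overlapped (log2 fold change 0.71 ± 0.25 SE, edgeR adjusted p = 0.085). It passed without wild-type ascending library 3 or descending library 7, and with DESeq2 (adjusted p = 0.021). In mutant mice its log2 fold change was 0.36 ± 0.24 (adjusted p = 0.48). Mmp9 went from 4.22 ± 0.695 to 5.36 ± 1.44 CPM (SD, n = 4) in wild-type and from 3.05 ± 0.620 to 3.25 ± 0.993 CPM in mutant mice, descending to ascending (edgeR adjusted p = 0.49 and 0.90).

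Membrane-type MMPs were lower in ascending aorta where they passed. Mmp17, which is held to the membrane by a lipid anchor (chr5:129584169-129611099), stood at 141, 123, 127 and 133 CPM in wild-type ascending and 204, 227, 255 and 212 CPM in wild-type descending libraries. Mutant mice had 168, 150.3, 136 and 142 CPM in ascending and 214, 213, 181 and 189.5 CPM in descending aorta. No ascending library reached a descending one, with log2 fold changes of -0.77 ± 0.09 and -0.42 ± 0.09 SE (edgeR, adjusted p = 6.0e-06 and 0.0035). Mmp15 (chr8:95352268-95375080) stood at 5.33, 5.87, 6.33 and 7.50 CPM in mutant ascending and 8.71, 9.002, 8.59 and 10.8 CPM in mutant descending libraries, again with no overlap (-0.57 ± 0.15, adjusted p = 0.016). That call was lost without mutant ascending library 2 (adjusted p = 0.061) or mutant descending library 8 (0.066). In wild-type mice Mmp15 differed by 0.04 ± 0.14 on the log2 scale, with 8.04 ± 0.841 CPM in ascending and 7.81 ± 1.31 CPM in descending aorta. Mmp14 stood at 103 ± 17.3 to 127 ± 21.9 CPM over the 4 groups and did not pass by region (adjusted p = 0.78 and 0.84). For Mmp16 the log2 fold changes were 0.38 in wild-type mice (adjusted p = 0.21) and 0.03 in mutant mice.

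Mmp28, a secreted MMP called epilysin (chr11:83440768-83463071), was also lower in ascending aorta of mutant mice. It had 14.7, 19.9, 17.99 and 15.4 CPM in mutant ascending and 21.8, 29.1, 24.6 and 25.5 CPM in mutant descending libraries, which did not overlap (-0.57 ± 0.13 SE, edgeR adjusted p = 0.0054). The wild-type difference was -0.31 ± 0.13 on the same scale (adjusted p = 0.14), and descending library 7 of that genotype, with 19.9 CPM, was below the others, which had 25.7 to 29.2 CPM. It passed without that library (adjusted p = 0.025). Mmp28 shares 466 exonic bases with 1700020L24Rik on the opposite strand, which stood at 3.40 to 7.75 CPM in the 4 groups and had lower means in ascending aorta as well. The strand setting of the counting is not given in the sources used here, so the reads of such pairs cannot be told apart. Mmp11, Mmp19 and Mmp23 did not pass, with log2 fold changes between -0.24 and 0.24 in both genotypes. Endothelial marker sums were lower in ascending aorta too, at 1428 to 1934 and 1295 to 2041 CPM against 2353 to 3224 and 2036 to 2347 CPM, with 4 of 8 markers lower and 2 higher in wild-type mice and 1 lower and 2 higher in mutant mice; their part in these results was not tested.

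The 4 TIMPs went 3 ways by region. Timp2 did not pass, at 1267 ± 75.2 and 1326 ± 19.99 CPM (SD, n = 4) in wild-type and mutant ascending aorta and 1284 ± 64.6 and 1295 ± 59.8 CPM in descending aorta. Timp3, the matrix-bound TIMP (chr10:86300372-86349506), stood at 917, 850.3, 1088 and 1078 CPM in wild-type ascending and 723, 729, 715 and 582.5 CPM in wild-type descending libraries. These groups did not overlap (log2 fold change 0.52 ± 0.11 SE, edgeR adjusted p = 0.0027). In mutant mice Timp3 stood at 775, 847, 991 and 988 CPM against 774, 769.99, 840.2 and 912 CPM, which did overlap (0.13 ± 0.11, adjusted p = 0.59). Timp3 shares 1733 exonic bases with Syn3 on the opposite strand, and Syn3 stood at 1.52 to 1.77 CPM in these groups.

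Timp4, a TIMP of narrow tissue range that is known from heart, was lower in ascending aorta of both genotypes (chr6:115241892-115252205). Wild-type libraries had 8.85, 7.63, 6.72 and 6.08 CPM in ascending and 13.8, 11.2, 9.95 and 11.1 CPM in descending aorta. Mutant libraries had 7.60, 9.67, 5.62 and 8.15 CPM in ascending and 19.3, 21.2, 10.5 and 14.7 CPM in descending aorta. All untreated ascending libraries lay below all descending libraries of the same genotype. The log2 fold changes were -0.65 ± 0.20 and -1.08 ± 0.20 SE (edgeR, adjusted p = 0.047 and 0.0014). The wild-type call was lost in 7 of the 8 fits that leave out 1 library, all but that without ascending library 1 (adjusted p = 0.053 to 0.15), while with the replicate block it stood at an adjusted p of 0.00097. The mutant call was kept in all 12 alternatives. Syn2, which overlaps Timp4 on the opposite strand, had lower means in ascending aorta as well, at 4.11 and 3.86 against 5.77 and 4.91 CPM. Adipocyte marker sums overlapped between the regions. They were 312 to 549 and 270.0 to 409 CPM in ascending and 336 to 603 and 313 to 526 CPM in descending aorta. Plin4 alone averaged 323 and 298 CPM in ascending and 308 and 313 CPM in descending aorta. The 8 adipocyte markers had a median log2 fold change of -0.76 in wild-type mice (-3.52 to 0.74) and -1.09 in mutants (-5.55 to -0.07). Of these markers, 1 passed as lower in wild-type mice and 2 in mutants. The part of adipocytes in the Timp4 result was not tested. Heart muscle sums were higher in ascending aorta, and their part was not tested either.

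Timp1, the most inducible TIMP (chrX:20870166-20874735), was higher in ascending aorta of mutant mice. Its levels were 175, 56.1, 54.9 and 36.6 CPM in mutant ascending libraries 2, 4, 6 and 8, and 25.1, 26.1, 28.4 and 28.8 CPM in mutant descending libraries. The groups did not overlap, and library 2 had over 3 times the level of the next highest (log2 fold change 1.58 ± 0.38 SE, edgeR adjusted p = 0.015). Without library 2 the log2 fold change was 0.86 (adjusted p = 0.0020), and with the replicate block the call was lost (1.30, adjusted p = 0.083). Library 2 was the one with the high lymphocyte and thymus marker sum, and its macrophage, neutrophil and mesothelial sums were also the highest of its group, at 1259, 24.6 and 588 CPM against 923 to 1032, 2.6 to 11.8 and 352 to 460 CPM; their part in its level was not tested. In wild-type mice Timp1 stood at 25.5, 33.2, 37.0 and 33.5 CPM in ascending and 23.4, 21.1, 16.01 and 25.96 CPM in descending aorta, with 1 library of each region crossing (0.58 ± 0.38, adjusted p = 0.46). Reck stood at 136 to 137 CPM in all 4 groups and did not pass.

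Of the proteinases that trim procollagens, 1 passed in 1 genotype. Bmp1, the proteinase that removes the C-terminal propeptides of fibrillar collagens (chr14:70474558-70520234), stood at 149, 122, 125 and 129 CPM in mutant ascending and 162.5, 158, 181 and 170.45 CPM in mutant descending libraries. The groups did not overlap (-0.36 ± 0.10 SE, edgeR adjusted p = 0.028). The call was lost without mutant ascending library 4, 6 or 8 or mutant descending library 6 or 8 (adjusted p = 0.064 to 0.089). In wild-type mice Bmp1 had a log2 fold change of -0.18, and Adamts2, Adamts3 and Adamts14, which remove the N-terminal propeptides, lay between -0.22 and 0.45 in both genotypes and did not pass.

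Among the other ADAMTS enzymes, Adamts7 and Adamts19 passed in wild-type mice. Adamts7, which cuts cartilage oligomeric matrix protein (chr9:90163069-90208071), stood at 4.74, 5.47, 7.23 and 6.65 CPM in wild-type ascending and 1.69, 2.34, 2.15 and 2.26 CPM in wild-type descending libraries. These did not overlap (1.51 ± 0.23 SE, edgeR adjusted p = 0.00015). In mutant mice it had 5.12, 2.55, 3.71 and 3.85 CPM against 2.58, 1.76, 3.15 and 2.68 CPM, which overlapped (0.59 ± 0.23, adjusted p = 0.14). It passed in mutant mice with the replicate block (0.58, adjusted p = 0.0497) or without mutant ascending library 4. Adamts7 shares 122 exonic bases with the much more abundant Tbc1d2b (126 to 166.5 CPM) on the opposite strand, whose ascending means were the lower ones in both genotypes.

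Adamts19 had the largest log2 fold change of the tested members in wild-type mice, and a wide spread. Its levels were 0.320, 2.95, 6.93 and 4.93 CPM in wild-type ascending and 0.435, 0, 0.0582 and 0.158 CPM in wild-type descending libraries. Ascending library 1 was below descending library 1, so that the groups overlapped while the other 3 ascending libraries stood clear (4.49 ± 0.97 SE on the log2 scale, edgeR adjusted p = 0.0049). In mutant mice it stood at 0.853, 0, 1.58 and 1.15 CPM against 0.730, 1.08, 1.23 and 0.584 CPM, with a log2 fold change of -0.01 ± 0.83. Cartilage marker sums in wild-type ascending libraries were 93.1, 176, 357 and 239 CPM, lowest in library 1 and highest in library 5 as for Adamts19, and 39.6 to 101 CPM in mutant ascending libraries; 5 of 8 tested cartilage markers were higher in ascending aorta of wild-type mice and 3 in that of mutants, with Matn1 at 0 in both ascending groups and Col9a2 and Cnmd at 0 in the wild-type descending group, and their part in the result was not tested.

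The remaining ADAMTS genes did not pass. Adamts12 had log2 fold changes of -0.41 and -0.58 (edgeR adjusted p = 0.30 and 0.10), and passed in both genotypes with the replicate block (adjusted p = 0.039 and 0.0049), and in mutant mice without ascending library 2. Adamts6, which is linked to fibrillin microfibrils, had 0.48 in wild-type mice (adjusted p = 0.35) and passed only with the block (adjusted p = 0.011). Adamts15, which cuts versican, had groups that did not overlap in mutant mice, at 40.5 to 52.0 CPM in ascending and 55.7 to 69.3 CPM in descending aorta (-0.41 ± 0.14 SE, adjusted p = 0.085). Adamts8 had log2 fold changes of 0.06 and -0.09.

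Of 8 ADAM sheddases, Adam33 passed, in mutant mice (chr2:131050591-131063814). It stood at 26.1, 32.6, 26.9 and 29.2 CPM in mutant ascending and 37.5, 45.7, 48.2 and 34.5 CPM in mutant descending libraries, with no overlap (-0.53 ± 0.13 SE, edgeR adjusted p = 0.012). Without descending library 6 the adjusted p was 0.051. In wild-type mice it had 37.4 ± 5.96 CPM (SD, n = 4) in ascending and 42.4 ± 5.41 CPM in descending aorta. Adam17, the main releaser of tumour necrosis factor, had groups that did not overlap in mutant mice, at 63.1 to 67.9 CPM against 70.3 to 89.1 CPM, and missed the threshold (-0.23 ± 0.09, adjusted p = 0.11). Adam9, Adam10 and Adam15 had log2 fold changes of -0.06 to 0.11. No cathepsin passed. Ctss, an elastin-cutting cathepsin of macrophages, had 0.49 ± 0.22 and 0.61 ± 0.21 (adjusted p = 0.20 and 0.095), and passed in mutant mice with DESeq2 (adjusted p = 0.040) or without mutant ascending library 8 (0.038). Ctsk, which cuts collagen and elastin, had mutant groups that did not overlap, at 53.2 to 59.7 CPM in ascending and 59.8 to 97.7 CPM in descending aorta (-0.39 ± 0.19, adjusted p = 0.28).

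**Figure D4:**
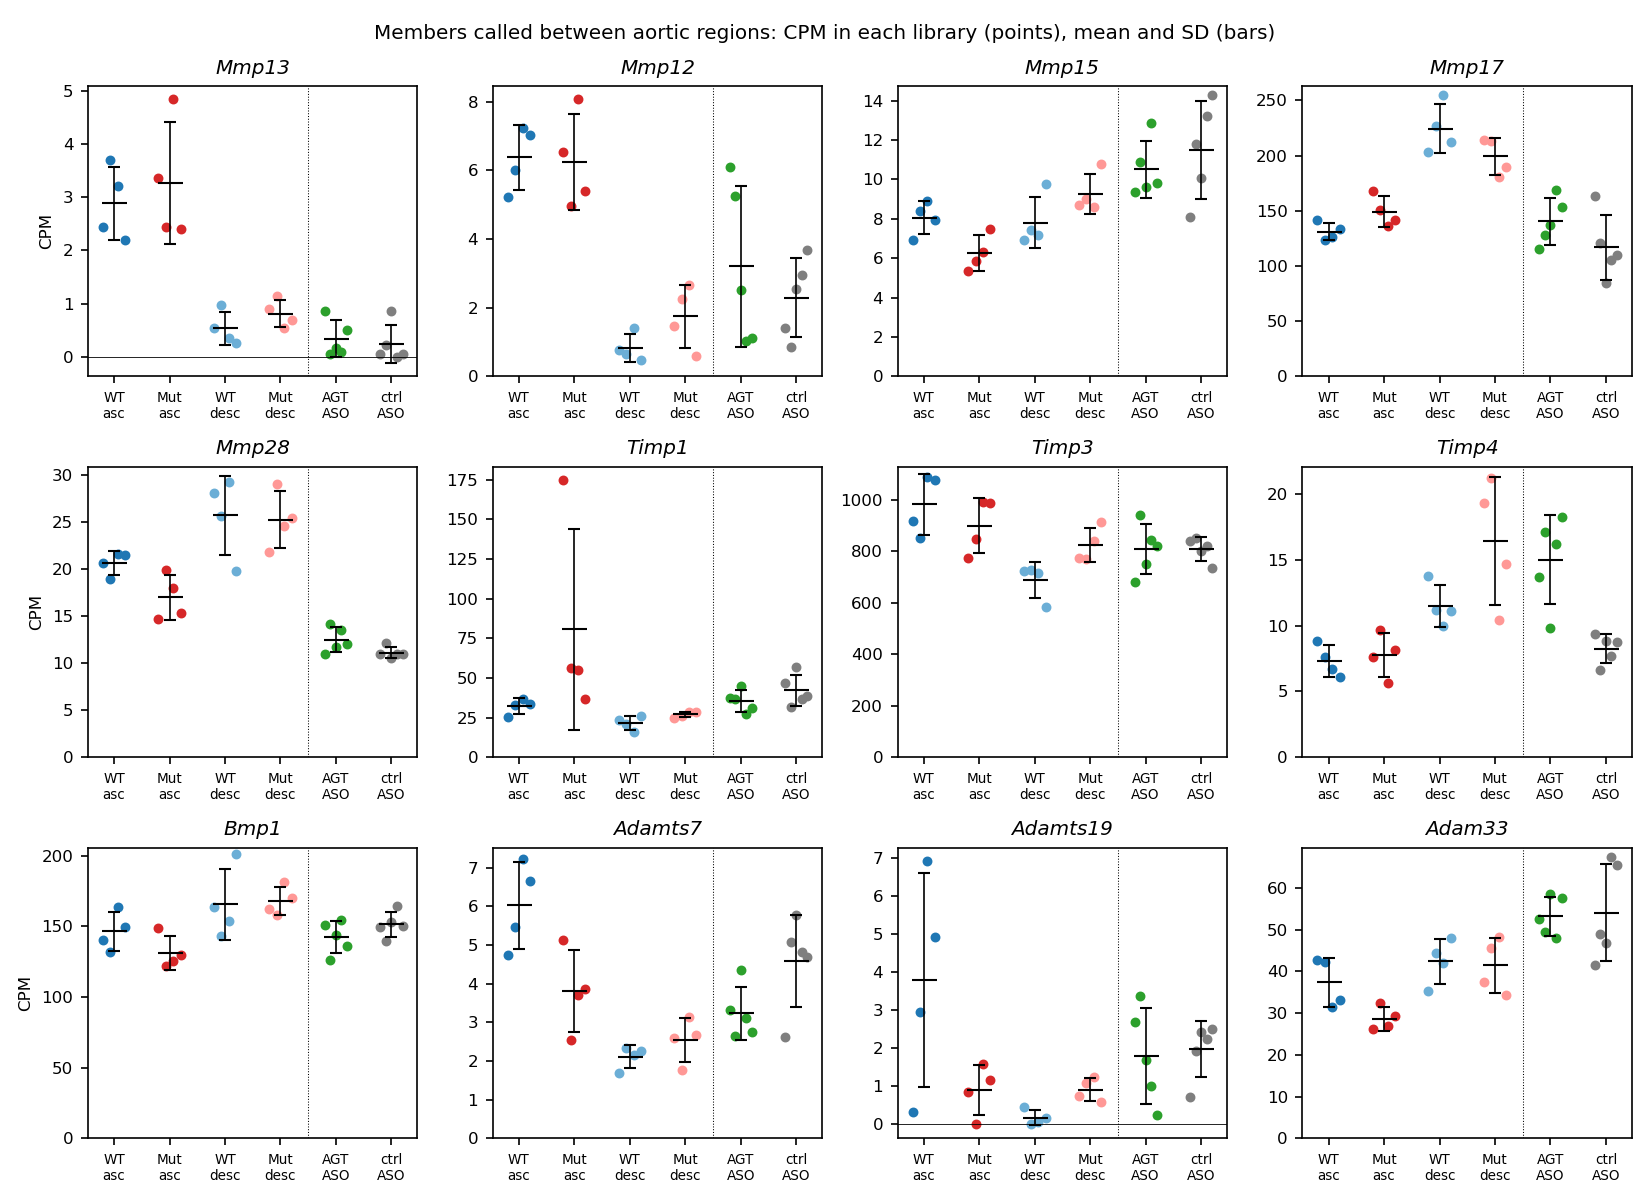
CPM of the 12 members that passed between regions, 1 point per library with the group mean and SD, on axes that start at or just below 0; the ASO groups, a separate experiment, stand right of the dotted line. Among untreated libraries, Mmp13 and Mmp12 show ascending ones above descending ones, and Mmp17 and Timp4 the reverse. Timp1 shows the single mutant ascending library at 175 CPM. The AGT-ASO and control ASO groups, also ascending, averaged 0.33 and 0.23 CPM of Mmp13 and 3.20 and 2.29 CPM of Mmp12.

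Another 58 genes of the same pathways were listed beside the members, and 45 of them were tested. Of these, 11 were higher and 3 lower in ascending aorta of wild-type mice, and 9 were higher and 5 lower in mutant mice, or 31.1% in each, against 11.1% and 9.92% of all genes. Of 12 other ADAMTS and ADAMTS-like genes, 5 rose and none fell in wild-type mice, and 3 rose and 3 fell in mutant mice, where over all genes 7.82% rose in wild-type mice and 6.41% rose and 3.51% fell in mutants. Adamtsl2, whose protein binds fibrillin-1 and latent TGF-beta binding protein, had 98.6 ± 12.9 and 71.5 ± 12.3 CPM (SD, n = 4) in the wild-type and mutant ascending groups and 18.8 ± 9.997 and 11.7 ± 1.46 CPM in descending aorta (edgeR adjusted p = 2.2e-05 and 1.4e-05). Papln and the aggrecanase gene Adamts5 also rose in both, by 2.07 and 1.90 and by 0.66 and 0.42 on the log2 scale. Adamts17 rose in wild-type mice (1.27), and Adamtsl4 fell in mutant mice (-0.45). Among activators and regulators, Tspan15, a partner of Adam10, rose in both (11.9 ± 0.925 and 10.1 ± 1.48 CPM against 2.96 ± 0.599 and 2.61 ± 0.522 CPM). Spock2 rose in both (0.78 in mutant mice, and 0.64 to 0.94 over the alternatives in wild-type mice). The serine protease gene Htra1 fell in wild-type mice (-0.58). Pcolce2, an enhancer of Bmp1, fell in both (145 ± 10.5 and 103 ± 6.69 CPM against 277 ± 44.5 and 213 ± 13.5 CPM, adjusted p = 2.7e-06 and 7.3e-07). The protease trap A2m was near 0 in descending aorta (0.0132 and 0.0414 CPM) and at 5.47 ± 2.55 and 2.14 ± 1.36 CPM in ascending aorta. The tolloid gene Tll1 rose in both (3.26 and 2.36), and Adam23 in wild-type mice (0.94). The cathepsin inhibitor gene Cst6 rose from 0.262 and 0.0518 CPM in descending to 1.49 and 1.38 CPM in ascending aorta, while Ctsh fell in both (-0.71 and -0.29) and Ctsd rose in mutant mice (0.40). Of the pathway genes named here, 2 lost a call without 1 library: Adam23 without wild-type ascending library 1, 5 or 7 or descending library 5 (adjusted p up to 0.078), and Ctsh in mutant mice without ascending library 6 or 8 or descending library 2, 6 or 8 (up to 0.13). The latter was also lost with no count filter (0.052).

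The genotype comparisons ask how the mutant aorta differs from that of wild-type littermates. With edgeR, 0 of 43 members passed in ascending aorta (2.19% of all genes did; 1.18% were higher and 1.00% lower) and 0 of 43 in descending aorta (1.21%; 0.678% were higher and 0.531% lower). At an unadjusted p under 0.05 there were 13 members in ascending and 7 in descending aorta (30.2% and 16.3%, against 16.2% and 10.8% of all genes). DESeq2 called 3 in ascending aorta, Timp1 and Adam9 higher and Adamts6 lower, and 0 in descending aorta. Over all genes it called 774 of 16457 in ascending and 407 of 15860 in descending aorta. The median log2 fold change of tested members was -0.01 in ascending and 0.08 in descending aorta, against -0.01 and 0.00 for all genes. Libraries of the genotypes did not overlap in 3 members in ascending aorta (Mmp3, Adam17 and Ctss) and 5 in descending aorta (Mmp9, Mmp3, Timp3, Adamts19 and Adam9), or 6.98% and 11.6%, against 9.50% and 7.29% of all genes.

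Mmp3 and Mmp9 had opposite signs by genotype. With the values listed above, all 4 mutant ascending libraries exceeded all wild-type ones for Mmp3, and the same held in descending aorta (log2 fold change 0.88 ± 0.28 and 0.56 ± 0.28 SE, edgeR adjusted p = 0.13 and 0.51). In ascending aorta the 4 wild-type libraries had 7.35, 3.93, 4.99 and 5.17 CPM of Mmp9, and the 4 mutant libraries 4.18, 1.90, 3.76 and 3.15 CPM. The descending libraries had 3.696, 5.23, 3.84 and 4.11 CPM without the mutation and 3.65, 3.45, 2.83 and 2.29 CPM with it. The mutant libraries were lower, without overlap in descending aorta and with one crossing in ascending aorta (-0.71 ± 0.24 and -0.47 ± 0.25, adjusted p = 0.14 and 0.53). Mmp2 had -0.42 ± 0.24 and -0.07 ± 0.24 (adjusted p = 0.43 and 0.96). Mmp14 had 0.20 ± 0.14 and 0.23 ± 0.14 (adjusted p = 0.50 and 0.62). Mmp12 and Mmp13, which differed by region, had -0.03 and 0.17 in ascending and 1.08 and 0.59 in descending aorta (edgeR adjusted p = 0.97, 0.83, 0.26 and 0.67).

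Timp1 had the lowest adjusted p of the members by genotype in ascending aorta. It went from 32.3 ± 4.86 CPM in wild-type to 80.7 ± 63.5 CPM in mutant mice (SD, n = 4; log2 fold change 1.32 ± 0.37 SE, edgeR adjusted p = 0.091). Mutant library 8, at 36.6 CPM, lay just under wild-type library 5, at 37.0 CPM, and library 2, at 175 CPM, was the outlying one. Without library 2 the log2 fold change was 0.60 (adjusted p = 0.096), without library 8 it passed (1.57, adjusted p = 0.029), and DESeq2 called it (adjusted p = 0.020). The marker sums of library 2 given above apply here as well. Timp2, Timp3 and Timp4 had 0.07, -0.13 and 0.09 in ascending aorta. In descending aorta Timp3 averaged 824 ± 67.0 CPM in mutants against 688 ± 70.4 CPM in wild-type mice and Timp4 at 16.4 ± 4.83 and 11.5 ± 1.60 CPM (0.26 and 0.51, adjusted p = 0.35 and 0.31), while Timp1 and Timp2 had 0.32 and 0.01.

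Adamts6 and Adam9 differed by genotype with DESeq2 but not with edgeR. Adamts6 stood at 27.0, 23.7, 44.5 and 38.0 CPM in wild-type ascending libraries and at 10.03, 16.7, 25.2 and 19.5 CPM in mutant ascending libraries, with mutant library 6 above wild-type library 3. Its log2 fold change was -0.90 ± 0.27 SE (edgeR adjusted p = 0.10, DESeq2 0.018), and it was -0.68 ± 0.28 in descending aorta (adjusted p = 0.37). Adam9 levels were 195, 165, 172 and 172 CPM for wild-type ascending libraries, and 216, 198, 193 and 198 CPM for mutant ones, a difference of 0.19 ± 0.06 (edgeR adjusted p = 0.13, DESeq2 0.034). Wild-type library 1 alone reached the mutant range. Adamts19 averaged 3.78 ± 2.82 CPM (SD, n = 4) in ascending aorta of wild-type mice, against 0.896 ± 0.668 CPM in that of mutants, and had the opposite sign in descending aorta (-2.07 ± 0.78 and 2.43 ± 1.05, adjusted p = 0.19 and 0.40). Adam12 had 1.77 ± 0.79 in ascending aorta (adjusted p = 0.29), with mutant library 2 at 15.8 CPM, library 4 at 5.44 CPM and the other 6 libraries at 1.07 to 2.51 CPM. Ctss levels were 44.0, 53.0, 51.2 and 46.9 CPM for wild-type ascending libraries, and 107, 64.6, 76.3 and 54.2 CPM for mutant ones, which did not overlap (0.63 ± 0.21, adjusted p = 0.15). Macrophage sums did not overlap either, with 734 to 847 CPM for wild-type ascending libraries against 923 to 1259 CPM for mutant ones, and their part in that difference was not tested.

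**Figure D5:**
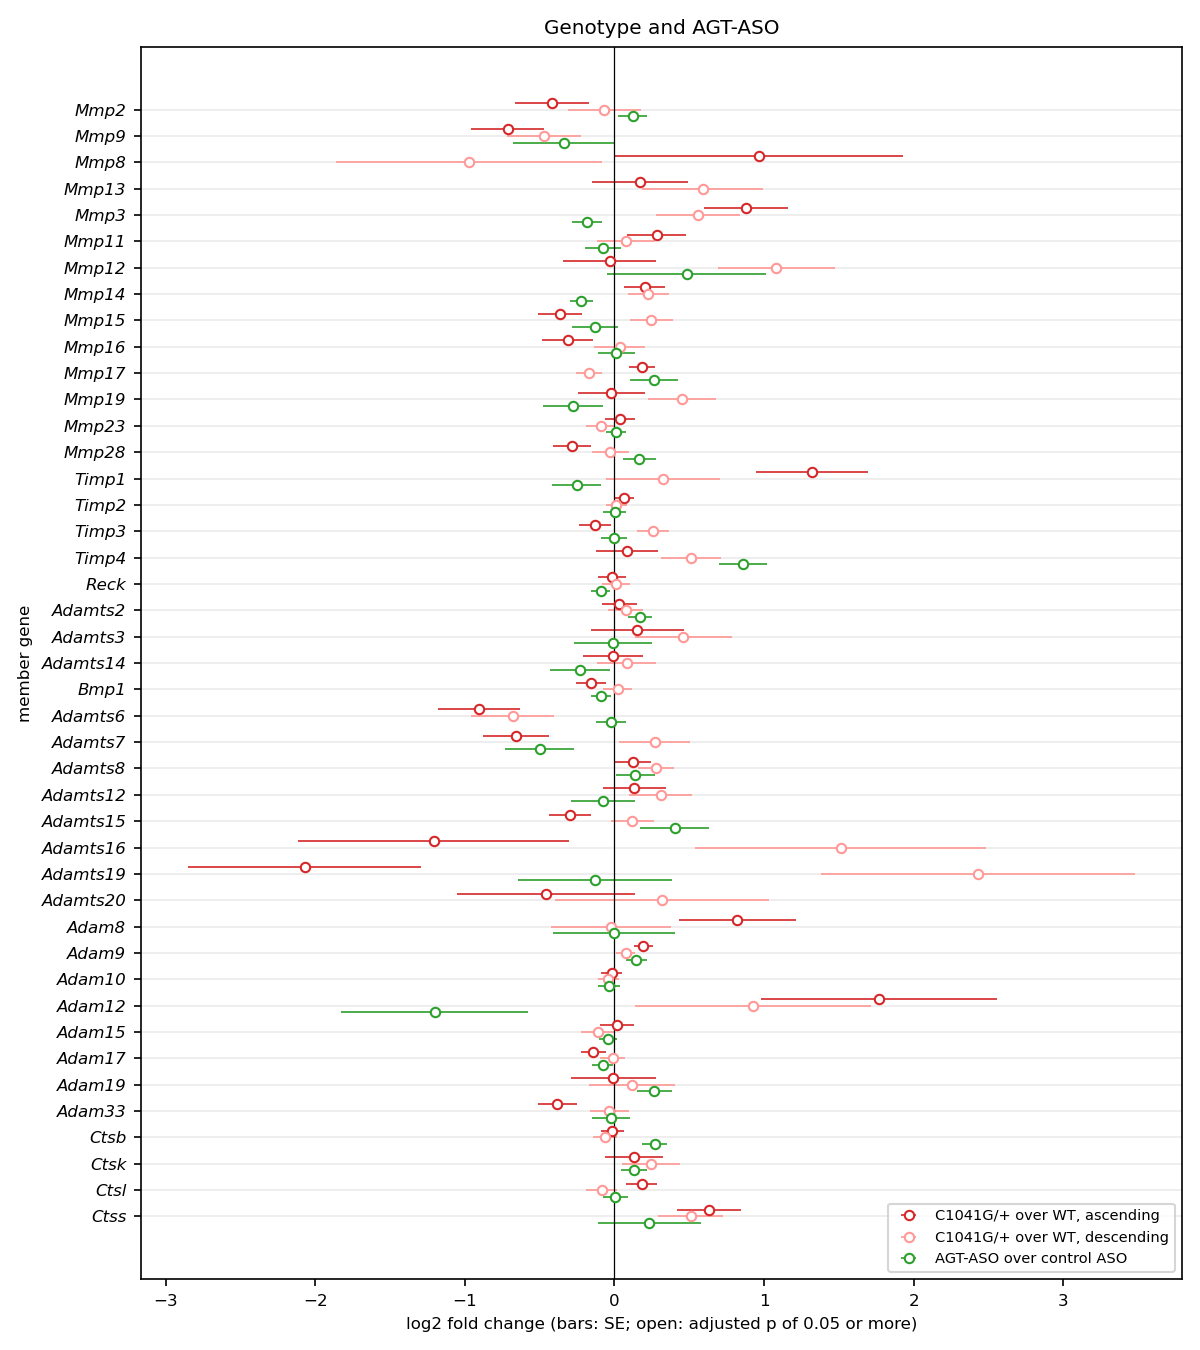
Log2 fold change of each tested member with standard errors: C1041G/+ over wild type in ascending (red) and descending aorta (pink), and AGT-ASO over control ASO (green). All points are open, since no member had an adjusted p under 0.05 with edgeR; Mmp8, Mmp13, Adamts16 and Adamts20 were tested in untreated libraries only.

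Of the 45 listed pathway genes tested, 1 rose and 3 fell by genotype in ascending aorta, and 1 fell in descending aorta (8.89% and 2.22%, against 2.19% and 1.21% of all genes). Htra3, a serine protease of the matrix, fell in both, from 314 ± 14.5 to 212 ± 8.91 CPM (SD, n = 4) in ascending and from 311 ± 36.0 to 217 ± 5.79 CPM in descending aorta (edgeR adjusted p = 0.00052 and 0.0012). Pcolce2 fell from 145 ± 10.5 to 103 ± 6.69 CPM (adjusted p = 0.011) and Adamtsl4, which binds fibrillin-1, from 45.9 ± 4.62 to 34.0 ± 4.32 CPM (adjusted p = 0.037) in ascending aorta. The cathepsin inhibitor gene Cstb rose from 45.5 ± 3.96 to 58.3 ± 5.72 CPM (adjusted p = 0.033). Leaving out any of wild-type libraries 1 and 3 and mutant libraries 4 and 6 ended the Adamtsl4 call (adjusted p = 0.089 to 0.11). For Cstb the same held for wild-type libraries 1, 3 and 7 and mutant libraries 2, 4 and 6 (0.051 to 0.10). Both calls were also lost when the heart muscle score entered the fit (0.12 and 0.15), while Htra3 and Pcolce2 kept theirs in every alternative run.

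The interaction of genotype and region tests whether the region difference itself differs between genotypes. It passed for 0 of 43 members with edgeR (0.00639% of all genes) and for 0 with DESeq2 (33 of 18245 genes). At an unadjusted p under 0.05 there were 6, which were Mmp12, Mmp15, Mmp17, Timp3, Adamts7 and Adamts19 where 5.08% of all genes reached that. A member that passed by region in 1 genotype is therefore not shown to differ between them. Adamts19 had the largest interaction, -4.50 ± 1.30 SE on the log2 scale (adjusted p = 0.57). None of the listed pathway genes passed it.

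The ASO libraries compare AGT-ASO with control ASO in mutant ascending aorta. With edgeR 0 of 39 members passed (0.0668% of all 14981 genes), and 5 had an unadjusted p under 0.05 (12.8%, against 12.7%). DESeq2 called 2, Timp4 and Ctsb, both higher, and 263 of 14591 over all genes. The median log2 fold change of tested members was -0.01, the same as over all genes. Only Timp4 among the 39 had no overlap between the groups (2.56%, against 2.46% of all genes). Over all genes 0.0134% were called higher and 0.0534% lower.

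Timp4 stood at 13.7, 17.1, 9.82, 16.2 and 18.3 CPM in AGT-ASO libraries 14, 15, 18, 19 and 20 and at 9.37, 6.66, 8.84, 7.68 and 8.76 CPM in control libraries 8, 12, 13, 16 and 17. The lowest AGT-ASO library, 18, lay just above the highest control library, 8. The group means were 15.01 ± 3.36 and 8.26 ± 1.09 CPM (SD, n = 5), with a log2 fold change of 0.86 ± 0.16 SE that just missed the threshold (edgeR adjusted p = 0.057). Over 14 alternatives the adjusted p ranged from 0.00014 to 0.36, and it was under 0.05 in 4: without the count filter (0.00014), with DESeq2 (0.00033), and without AGT-ASO library 14 (0.046) or control library 8 (0.018). Heart muscle markers summed to 312 to 705 CPM in AGT-ASO libraries against 701 to 1560 CPM in controls, with none of the 9 tested called and none of the 10 at 0. With their score as a covariate the Timp4 log2 fold change was 0.87 (adjusted p = 0.36). That score, the mean log2 level of the markers, was 4.17 ± 0.68 with AGT-ASO and 5.52 ± 0.66 with the control (SD, n = 5). Since it differed with treatment, a fit that holds both can separate treatment from heart muscle content only poorly. Adipocyte sums overlapped, at 377 to 585 and 360.0 to 489 CPM. Plin4 alone averaged 440 CPM under AGT-ASO and 358 CPM under the control. The 7 adipocyte markers tested had a median log2 fold change of -0.76 (-1.15 to 0.30). None of them passed, and their part was not tested. Syn2, which shares 90 exonic bases with Timp4, stood at 2.45 ± 0.584 CPM under AGT-ASO and 2.90 ± 0.928 CPM under the control.

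Ctsb, a lysosomal cathepsin, had 947, 1019, 963, 1032 and 898 CPM in the AGT-ASO libraries, in the same order, against 958, 779, 732, 784 and 779 CPM in the controls. Control library 8 was the only control within the AGT-ASO range (0.27 ± 0.08 SE on the log2 scale, edgeR adjusted p = 0.21). Without it Ctsb passed (0.34, adjusted p = 0.031), and it passed with DESeq2 (0.045). Ctss stood at 25.6 ± 9.33 CPM (SD, n = 5) under AGT-ASO and 21.8 ± 7.60 CPM under the control ASO, with a log2 fold change of 0.23 ± 0.35 SE (edgeR adjusted p = 0.83). It passed only once the heart muscle score entered the fit, which moved the log2 fold change to 1.40 (adjusted p = 0.0019). As said for Timp4, that fit separates treatment from heart muscle content poorly. The 9 macrophage markers summed to 519, 584, 647, 525 and 269 CPM in the AGT-ASO libraries, in the same order, and to 277 to 424 CPM in the controls. Libraries 14, 15, 18 and 19 were above every control and library 20 below them all. None of these markers passed (median log2 fold change 0.41) and none was at 0 in either group; their part in the Ctsb and Ctss values was not tested. Mmp14 went from 96.8 ± 10.9 CPM with control ASO to 82.97 ± 4.799 CPM with AGT-ASO (-0.22 ± 0.08, adjusted p = 0.26), and Adamts7 from 4.59 ± 1.18 to 3.24 ± 0.683 CPM (-0.50 ± 0.23, adjusted p = 0.39). Mmp2, Mmp9 and Timp1 had log2 fold changes of 0.12, -0.34 and -0.25 (adjusted p = 0.65, 0.73 and 0.56). Timp2 averaged 1276 ± 56.8 against 1275 ± 88.0 CPM and Timp3 808 ± 97.7 against 810.1 ± 46.4 CPM (adjusted p = 0.998 and 0.99). Of 44 listed pathway genes tested, 1 fell, Adamtsl2, from 60.3 ± 10.6 to 34.9 ± 5.17 CPM (-0.79 ± 0.13, adjusted p = 0.038), and none rose (2.27%, against 0.0668% of all genes). The Adamtsl2 call was lost in 8 of the 10 fits that leave out 1 library, all but those without AGT-ASO library 14 or control library 8 (adjusted p = 0.066 to 0.13). With the heart muscle score in the fit, and the same limit, its log2 fold change was -0.57 (adjusted p = 0.49).

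Levels in the ASO groups also differed from those in untreated mutant ascending aorta, which cannot be told apart from a difference between the experiments and was not tested. Both ASO means were lower for 28 of the 47 members and higher for 13. Every ASO library lay below every untreated one for 11 members and above for 3. The matching shares over all genes were not counted, so neither set of counts is a result about the members. Mmp9 stood at 0.724 ± 0.146 and 0.918 ± 0.0673 CPM in the ASO groups against 3.25 ± 0.993 CPM in untreated mutant ascending aorta, Mmp13 at 0.335 ± 0.346 and 0.231 ± 0.355 against 3.27 ± 1.15 CPM, and Ctsl at 302 ± 28.4 and 300.3 ± 30.2 against 568 ± 78.5 CPM. Timp2 averaged 1276 and 1275 against 1326 CPM. On the higher side, Adam33 averaged 53.2 and 54.1 against 28.7 CPM, Mmp15 10.5 and 11.5 against 6.26 CPM, and Mmp23 148 and 147 against 118 CPM. The 2 sets of libraries were also scaled apart. Neutrophil markers summed to 0.515 to 2.40 CPM in ASO libraries, with 6 of 8 at 0 with AGT-ASO and 3 of 8 with control ASO, against 2.6 to 24.6 CPM, and endothelial markers to 158 to 406 against 1295 to 2041 CPM; their part was not tested.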

How the data were processed

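RNA from mouse aorta (1 µg per library) was made into NEBNext Ultra libraries, per the labels' protocols. The submitters' processing notes name fastp, STAR 2.6.1d and the mouse build mm10. Each library's deposited file lists whole-number counts by Ensembl identifier, not normalized by the authors, while the sources used here give no counting tool, strand setting or annotation. Names, coordinates and exon lengths of genes came from GENCODE M21 (GRCm38, the same assembly as mm10), which named 54409 of the 54532 identifiers. Promoter windows came from the RefSeq table for GRCm38.p6, with those of chromosome 18 left out.

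The counts were tested with edgeR 4.0.16 (R 4.3.3), with TMM scaling, filterByExpr by group and a robust quasi-likelihood fit. The 16 untreated libraries were fitted together (15645 genes, 12 residual degrees of freedom, biological coefficient of variation 15.9%), and the 10 ASO libraries apart (14981 genes, 8 residual degrees of freedom, 17.1%). Every p was adjusted by Benjamini-Hochberg over all genes tested in its comparison, with a threshold of 0.05, and "passed", "rose" and "fell" refer to it. Mutant was set against wild type within ascending and within descending aorta, ascending against descending aorta within both genotypes, and AGT-ASO against control ASO; with the genotype by region interaction these are 6 comparisons. Alternatives were RLE scaling, no count filter, DESeq2 1.42.0, each library left out in turn, a heart muscle score as covariate and the replicate number as a block (random by limma 3.58.1 for genotype, fixed for region). The script was tested on simulated counts.

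Same-numbered ascending and descending libraries deviated together from their group means in all 8 pairs (r = 0.204 to 0.367). Other numbers of the same genotype had a mean r of -0.096. On this ground the replicate block treated same-numbered libraries as pairs. The main fit held no such block, so its region and interaction p-values are unpaired. No 2 libraries of a group agreed within sampling noise. Named with full values are the members that passed, Mmp2, Mmp9, Mmp14 and the TIMPs, and of each pathway list up to 4 genes that passed in a comparison, by p. Other members given with values were singled out after their values were seen. The members and lists were chosen with earlier results of these data known.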

Additional observations from a re-analysis of the deposited data

Results flagged for a closer look

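In 10 of 250 groups of libraries, 1 library lay far from the others of its group by Dixon's test; chance flags about 1 in 20 groups. In mutant ascending library 2, Timp1 stood at 175 CPM (others 36.6 to 56.1) and Adamts8 at 34.4 CPM (others 27.7 to 28.05). In wild-type descending library 7, Timp3 stood at 582.5 CPM (others 715 to 729), Adamts8 at 22.4 CPM (others 26.8 to 27.4) and Mmp16 at 8.27 CPM (others 11.5 to 11.9). In control ASO library 8, Adamts8 stood at 46.2 CPM (others 29.4 to 34.1), Adamts15 at 24.3 CPM (others 51.1 to 60.8) and Ctsb at 958 CPM (others 732 to 784). Mmp8 stood at 1.46 CPM in mutant descending library 2 (others 0.146 to 0.213), and Mmp11 at 11.6 CPM in wild-type ascending library 5 (others 8.66 to 8.86).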

How the results depend on the processing

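No member that passed in at least 1 fit, and no pathway gene that passed, changed direction under an alternative. In the genotype comparison of ascending aorta, DESeq2 called 3 members where edgeR called 0, and fits without 1 library called 0 to 1, the 1 being Timp1 without mutant library 8. For AGT-ASO, against 0 with edgeR, 1 member passed without the count filter (Timp4), 1 with the heart muscle covariate (Ctss) and 2 with DESeq2 (Timp4 and Ctsb), and 0 to 2 passed without 1 library: 1 without AGT-ASO library 14 and 2 without control library 8. The cause was not tested. Genotype in descending aorta and the interaction gave 0 members in every alternative run. The region counts stayed within 1.5 times: 6 to 8 in wild-type (against 7) and 7 to 9 in mutant mice (against 9) without 1 library, and 8 and 10 with DESeq2. With the fixed replicate block, 10 members passed in each genotype, and the calls that the block changed are those given with the results. Calls by region also rose over all genes. The block called 2424 of 15645 genes in wild-type and 2321 in mutant mice, against 1741 and 1552 in the main fit. DESeq2 called 2085 of 21230 and 1897 of 20036 genes. The random replicate block changed no genotype call of a member. Over all genes, DESeq2 called 774 against 342 by genotype in ascending aorta, 407 against 189 in descending aorta, 33 against 1 in the interaction and 263 against 10 for AGT-ASO. The heart muscle covariate gave 164 for ascending genotype and 5 for AGT-ASO, leaving out mutant ascending library 2 gave 163 and library 4 gave 206 for ascending genotype, the filter's removal gave 147 for AGT-ASO and 6 for the interaction, and the fixed block gave 13 for the interaction, which without 1 library had 1 to 10. For AGT-ASO, leaving out control library 8 gave 180, AGT-ASO library 14 gave 40, and 6 of the other libraries gave 0. Depth limits Mmp13, Mmp12, Adamts7 and Adamts19, which rest on 12 to 523 counts over an untreated group, and Mmp8, Adamts16 and Adamts20, which rest on 14 to 73.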
